A study of Homo sapiens with 6 samples.

Results

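The aminoacyl-tRNA synthetases and the scaffold proteins that hold some of them together were followed in SW480 cells, an established line from a human colorectal adenocarcinoma. The tested cells had received 30 pmol of an siRNA against KHSRP and the control cells the same amount of a non-targeting scramble siRNA. Both were transfected with 2 µl of a lipid reagent and harvested after 48 h, and each siRNA had 3 arrays that the labels number as biological replicates. The siRNA's target, KHSRP, is a KH-type splicing regulator that binds RNA and can speed the decay of mRNAs. Members were chosen by gene symbol from a list of 38 genes, and where a gene had several rows the row was selected on the highest mean over the 6 arrays, so that mean level is described and not tested. Of the 38 genes, 36 had a named row, among 22412 tested genes. They were 7 synthetases of the multi-synthetase complex, the scaffold gene AIMP1, 12 free cytosolic synthetases and 16 mitochondrial synthetases. The scaffold genes AIMP2 and EEF1E1 were not analysed here. The family was taken up with results of these data known, so its counts are a description.

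Each synthetase joins an amino acid to the tRNAs that read its codons, using ATP, and so supplies charged tRNA to the ribosome. The cytosolic and the mitochondrial enzymes are encoded mostly by separate nuclear genes, whereas GARS1 and KARS1 encode both forms. In animal cells several cytosolic synthetases sit in a large complex built on the proteins AIMP1, AIMP2 and EEF1E1, and the others act outside it. The transcription factor ATF4, which is translated more when amino acids are short or the endoplasmic reticulum is stressed, is known for raising the transcription of many cytosolic synthetase genes. With C/EBP proteins it binds the C/EBP-ATF response element.

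Promoter sequences are shown because this element is a feature that the choice of members did not use. The RefSeq table of promoters (build GRCh38.p14, 250 bases before to 50 bases after a start) held windows for 33 of the 38 members and none for LARS1, VARS1, YARS1, AARS2 and VARS2. The 8-base core of the element, TGATGNAA, was searched on both strands. It stood in the windows of 8 of the 33 members (24.2%), against 4.46% of 27305 genes with a window. Among cytosolic synthetases 7 of 16 had it (43.8%), among mitochondrial ones 1 of 14 (7.14%) and among scaffold genes 0 of 3. The matches are printed 5′ to 3′ on the gene's strand with 26 bases on each side, the core in capitals and matches on the opposite strand shown as they read on the gene's strand. In CARS1, GARS1 and TARS1, which have 2 windows each, only 1 held it. A match describes letters and is not shown to be a bound site.
IARS1: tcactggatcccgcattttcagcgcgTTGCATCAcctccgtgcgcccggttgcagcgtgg
CARS1: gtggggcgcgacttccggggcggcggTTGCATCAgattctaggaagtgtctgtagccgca
NARS1: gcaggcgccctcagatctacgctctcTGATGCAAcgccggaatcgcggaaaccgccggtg
GARS1: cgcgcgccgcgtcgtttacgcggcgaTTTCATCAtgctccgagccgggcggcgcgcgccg
TARS1: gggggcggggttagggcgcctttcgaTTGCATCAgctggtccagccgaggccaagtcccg
MARS1: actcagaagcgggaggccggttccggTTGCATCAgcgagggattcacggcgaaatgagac
AARS1: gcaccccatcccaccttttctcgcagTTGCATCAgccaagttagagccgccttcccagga
YARS2: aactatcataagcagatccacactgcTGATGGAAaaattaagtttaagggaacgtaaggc

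The IARS1 stretch lies at chr9:92293677-92293736 on the minus strand, with its core 13 bases before the start. The CARS1 stretch is chr11:3057392-3057451 (minus strand, 2 bases before) and the NARS1 stretch chr18:57621789-57621848 (minus strand, 14 bases after the start). GARS1 is at chr7:30594819-30594878 (plus strand, 33 bases before) and TARS1 at chr5:33440941-33441000 (plus strand, 2 bases after). MARS1 is at chr12:57488038-57488097 (plus strand, 4 bases before). In these 6 genes the core thus began within 33 bases of a start. Distances are counted to the first base of the match, so the cores of CARS1 and MARS1 run across the start. The other matches were farther away, AARS1 at chr16:70289660-70289719 (minus strand, 187 bases before) and YARS2 at chr12:32756061-32756120 (minus strand, 197 bases before). The E-box CACGTG, a site of MYC-family factors, was in the windows of 5 of 33 members (15.2%), against 8.77% of genes. Among cytosolic synthetases 1 of 16 held it (6.25%, under the share of all genes), IARS1, 186 bases before the start. Among mitochondrial ones 3 of 14 held it (21.4%), and among scaffold genes 1 of 3.

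Values below are the deposited log2 intensities, ascribed to RMA in the submitters' notes, so a difference of 1 is a 2-fold difference on that scale. The row of KHSRP, which also carries the annotation of a microRNA gene, was at 5.62, 5.60 and 5.56 in the arrays labelled KHSRP siRNA, against 5.75, 5.59 and 5.64 in the scramble arrays. With a log2 fold change of -0.07 (SE 0.08, adjusted p = 0.804 by limma), the row did not separate the groups, so the target's level does not check the labels. Of 10 colon epithelial markers, EPCAM, KRT8, KRT18, KRT19 and CDH1 stood clearly above 4.73, the 95th percentile of 366 olfactory receptor genes, while KRT20, CDX1 and CDH17 were under it in both groups. Of 10 measured markers of leukocytes, fibroblasts and endothelium, 9 were under 4.73 in both groups and the exception was CD68 (5.73 and 5.75). Summed over the list they ran from 41.0 to 41.7 in the KHSRP siRNA arrays and from 41.0 to 41.9 in the scramble arrays, while the epithelial list ran from 77.4 to 77.9 in the KHSRP siRNA arrays and from 75.2 to 75.7 in the scramble arrays. None of these markers was called by limma, but KRT8, KRT18, KRT19 and VIL1 were higher in every KHSRP siRNA array, as were 11.6% of all tested genes. The part of that shift in the results was not tested.

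Cytosolic synthetase transcripts were mostly lower after KHSRP siRNA, as the arrays are labelled. Of the 19 genes, 17 had a log2 fold change below 0, with a median of -0.26 against 0.02 over all tested genes. The called genes were IARS1, LARS1 and SARS1, all lower, by the limma fit over all genes with Benjamini-Hochberg adjustment and a threshold of 0.05. They are 3 of the 36 measured members (8.33%), against 0.759% of all tested genes called in either direction and 0.25% called lower. In 14 of the 36 members (38.9%) every KHSRP siRNA array lay below every scramble array, against 7.82% of all tested genes. The reverse held for 0 of the 36, against 11.6% of all tested genes. At an unadjusted limma p under 0.05, 13 members were lower and 0 higher. Of the 22412 tested genes, 5.89% were lower and 1908 higher at that threshold. Such separation was more frequent among bright rows: 18.9% of the 1781 tested genes with a mean level of 9 or more were lower in every KHSRP siRNA array, and so were 10 of the 14 members at that level. All 3 calls were lost when KHSRP siRNA replicate 2 or 3 or any 1 scramble array was left out, and in the fits with median centring, the replicate block, the intensity trend and robust prior, or a covariate for array medians. A further quantile normalization kept that of IARS1 and lost those of LARS1 and SARS1.

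**Figure D1:**
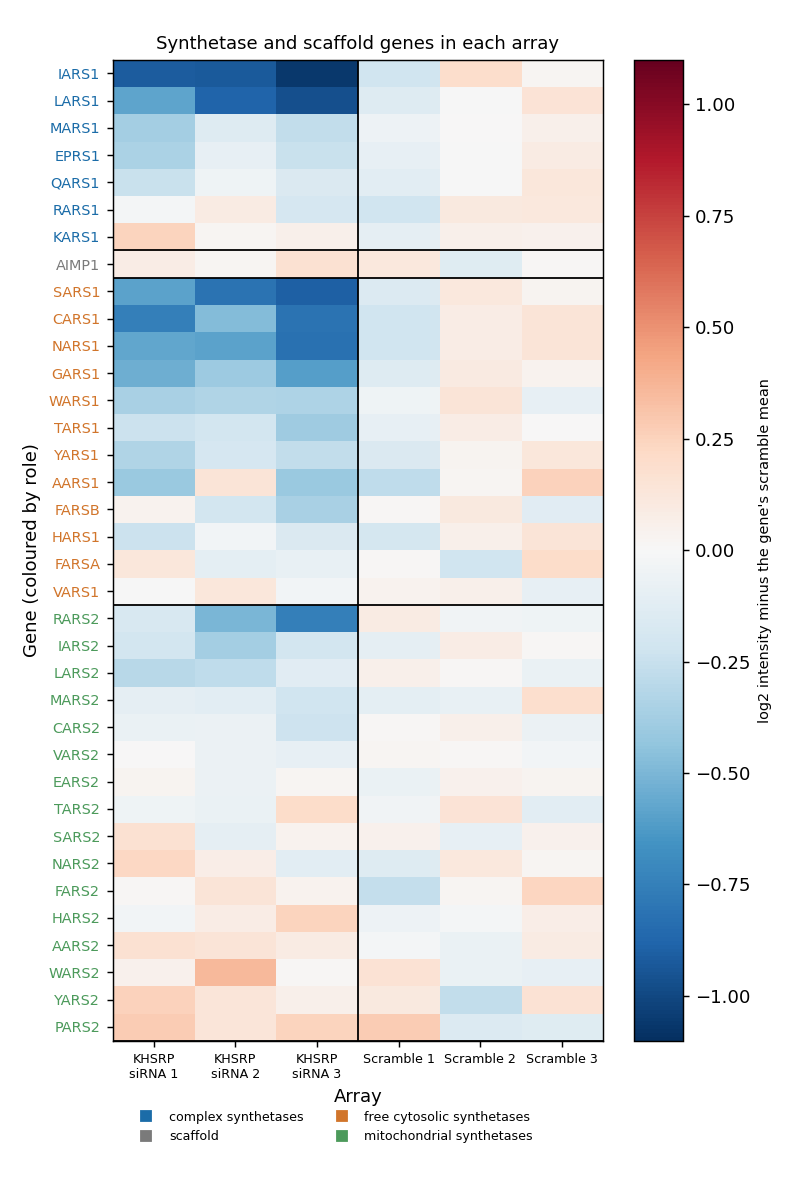
Log2 intensity minus the gene's scramble mean (colour scale) for the 36 measured members (down) in the 6 arrays (across), with gene names coloured by role and lines between roles. IARS1, LARS1, SARS1, CARS1, NARS1 and GARS1 are blue in all 3 KHSRP siRNA arrays, while most mitochondrial synthetases are pale throughout.

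Within the complex the genes ranged from -0.97 to 0.11. IARS1, which charges isoleucine tRNA, was at 11.88, 11.88 and 11.74 in the KHSRP siRNA arrays, against 12.59, 12.99 and 12.83 in the scramble arrays. The groups were apart by more than the spread inside either of them, and the scramble arrays varied more. IARS1 fell to 51.2% of its scramble level (95% interval 42.2% to 62.0%, log2 fold change -0.97, SE 0.12, adjusted p = 0.0438). LARS1, the leucine enzyme and also known as a leucine sensor upstream of mTORC1, was at 12.47, 12.17 and 12.09 in the KHSRP siRNA arrays and at 12.91, 13.05 and 13.20 in the scramble arrays. It fell to 57.0% (46.3% to 70.3%, log2 fold change -0.81, SE 0.13, adjusted p = 0.0478). KHSRP siRNA replicate 1 was the highest of its group for LARS1 and still lay below all scramble arrays. Over 14 alternatives the log2 fold change ran from -1.07 to -0.87 for IARS1 and from -0.93 to -0.73 for LARS1, with adjusted p from 0.0205 to 0.161 and from 0.0238 to 0.169.

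The other synthetases of the complex did not pass. MARS1, the methionine enzyme, which charges the initiator tRNA as well, was at 11.08, 11.32 and 11.19 in the KHSRP siRNA arrays, against 11.40, 11.46 and 11.51 in the scramble arrays (log2 fold change -0.26, SE 0.09, adjusted p = 0.238). EPRS1, a fused enzyme for glutamate and proline, was at 11.34, 11.60 and 11.44 in the KHSRP siRNA arrays and at 11.60, 11.68 and 11.78 in the scramble arrays (-0.23, SE 0.10, adjusted p = 0.352). In both genes the groups did not overlap, by a margin in EPRS1 that vanishes at 2 decimals. QARS1, for glutamine, was at 8.36, 8.56 and 8.46 in the KHSRP siRNA arrays, against 8.50, 8.61 and 8.74 in the scramble arrays, and the groups overlapped (-0.15, SE 0.10, adjusted p = 0.569). RARS1, for arginine, was at 10.65, 10.76 and 10.48 in the KHSRP siRNA arrays and at 10.44, 10.77 and 10.79 in the scramble arrays (-0.04, SE 0.12, adjusted p = 0.949). KARS1, for lysine, was at 10.55, 10.33 and 10.36 in the KHSRP siRNA arrays, against 10.20, 10.35 and 10.35 in the scramble arrays (0.11, 95% interval -0.11 to 0.33). KARS1 was the synthetase of the complex fitted above 0, and its highest array was KHSRP siRNA replicate 1. The scaffold gene AIMP1, whose product binds RARS1 and tRNA, was at 9.19, 9.13 and 9.27 in the KHSRP siRNA arrays and at 9.23, 8.97 and 9.12 in the scramble arrays. Its log2 fold change was 0.09 (95% interval -0.13 to 0.31, adjusted p = 0.775), and its groups overlapped.

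Among the 12 free cytosolic synthetases 11 were fitted below 0, and in 7 (58.3%) every KHSRP siRNA array lay below every scramble array, against 7.82% of all tested genes and 18.9% of those at a mean level of 9 or more, where 5 of the 12 lie. SARS1, which charges serine tRNA and the selenocysteine tRNA, was at 10.84, 10.61 and 10.52 in the KHSRP siRNA arrays, against 11.27, 11.54 and 11.46 in the scramble arrays. It fell to 58.8% of the scramble level (48.7% to 71.0%, log2 fold change -0.77, SE 0.12, adjusted p = 0.0473). Over 14 alternatives SARS1 ran from -0.86 to -0.70, with adjusted p from 0.0238 to 0.169. Neither of its 2 promoter windows held the core printed above for other members.

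CARS1, for cysteine, was at 7.37, 7.65 and 7.31 in the KHSRP siRNA arrays and at 7.90, 8.21 and 8.26 in the scramble arrays (log2 fold change -0.68, SE 0.13, adjusted p = 0.0723). NARS1, for asparagine, was at 11.82, 11.79 and 11.57 in the KHSRP siRNA arrays, against 12.17, 12.46 and 12.53 in the scramble arrays (-0.66, SE 0.12, adjusted p = 0.0660). GARS1, for glycine, was at 10.83, 10.97 and 10.77 in the KHSRP siRNA arrays and at 11.23, 11.46 and 11.41 in the scramble arrays (-0.51, SE 0.10, adjusted p = 0.0681). These genes just missed the threshold with groups well apart, and all 3 carry the core near a start. They passed it with array weights and when only genes above the median level were fitted. Over 14 alternatives adjusted p ran from 0.0279 to 0.240 for CARS1, from 0.0279 to 0.221 for NARS1 and from 0.0284 to 0.237 for GARS1. In IARS1, LARS1, SARS1, CARS1, NARS1 and GARS1 alike, scramble replicate 1 was the lowest of the scramble arrays.

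**Figure D2:**
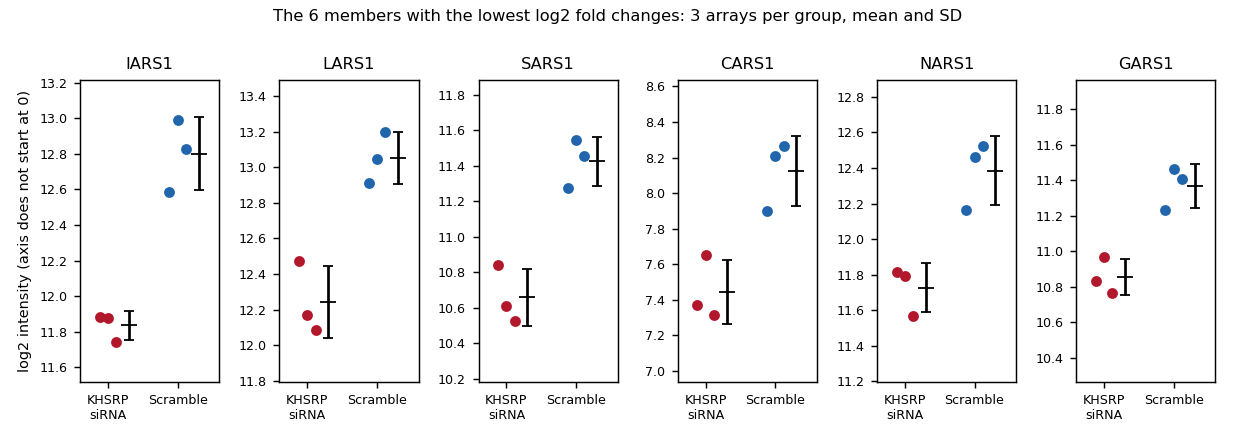
Log2 intensity (vertical axis, a window of equal height in each panel that does not start at 0) of the 6 members with the lowest log2 fold changes, one point per array, with the mean and SD of 3 arrays beside each group. In every panel the KHSRP siRNA arrays, left, lie below the scramble arrays, with IARS1 at 11.83 ± 0.08 and 12.80 ± 0.20.

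WARS1, the tryptophan enzyme, which is also known as an interferon-induced gene, was at 8.19, 8.21 and 8.21 in the KHSRP siRNA arrays, against 8.49, 8.69 and 8.46 in the scramble arrays (log2 fold change -0.34, SE 0.09, adjusted p = 0.135). TARS1, for threonine, was at 11.12, 11.15 and 10.96 in the KHSRP siRNA arrays and at 11.26, 11.43 and 11.36 in the scramble arrays (-0.27, SE 0.09, adjusted p = 0.225). In both the groups did not overlap, by smaller margins than in SARS1. YARS1, for tyrosine, had a similar value of -0.26 (adjusted p = 0.287) with groups apart. The remaining 5 overlapped between groups and ran from -0.23 in AARS1 to 0.03 in VARS1. AARS1, for alanine, had the widest spread of the cytosolic members, 9.78 ± 0.31 in the KHSRP siRNA arrays and 10.00 ± 0.27 in the scramble arrays (SD, n = 3 each), and carries the core 187 bases before its start. FARSA and FARSB, the subunits of the phenylalanine enzyme, were at -0.02 and -0.17, and HARS1, for histidine, at -0.14. VARS1, for valine, had 7 rows, whose differences ran from 0.003 to 0.07.

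**Figure D3:**
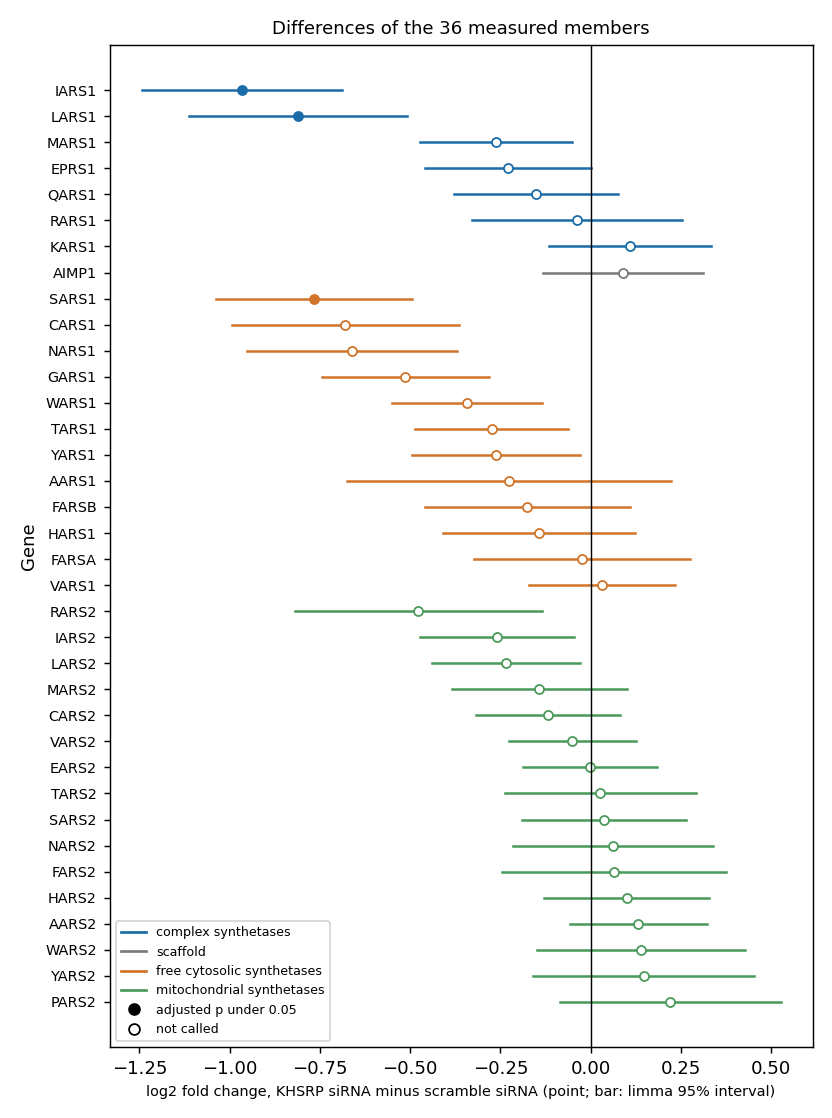
Log2 fold change of each measured member, KHSRP siRNA minus scramble siRNA (horizontal axis), with limma's 95% interval, coloured by role, filled where the adjusted p was under 0.05. The filled points are IARS1 at -0.97, LARS1 at -0.81 and SARS1 at -0.77, and the mitochondrial genes lie on both sides of 0, from -0.48 to 0.22.

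Membership of the complex did not separate the cytosolic genes. The median log2 fold change was -0.23 over the 7 complex synthetases and -0.27 over the 12 free ones, a difference of 0.04, which was 0.12 without KHSRP siRNA replicate 1. Taken array by array as the median deviation from the scramble mean, complex minus free was -0.01, 0.11 and 0.13 in the KHSRP siRNA arrays, against 0.03, -0.08 and 0.01 in the scramble arrays, and these ranges overlapped. The complex held both the lowest log2 fold change of all members, that of IARS1, and the highest of the cytosolic synthetases, that of KARS1. The structural classes of the catalytic domain did not divide the genes either, with medians of -0.26 over 9 class I enzymes and -0.23 over 9 class II enzymes, EPRS1 being left out because it holds both kinds. No test was made on these lists.

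A split by what has been described of regulation set the cytosolic genes farther apart. Its lists were chosen with earlier results of these data known, so the counts are a description. The 13 synthetases described as induced through ATF4 had a median of -0.34, and in 11 of them (84.6%) the groups did not overlap, all lower in KHSRP siRNA, against 7.82% of all tested genes. The 6 not so described (FARSA, FARSB, HARS1, KARS1, QARS1 and RARS1) had a median of -0.09. In 0 of them were the groups apart, against 7.82% of all tested genes apart and lower and 11.6% apart and higher. Among 6 genes a count of 0 is near those shares. Brightness went with this split, as 9 of the 13 genes had a mean level of 9 or more, against 2 of the 6 others, and 18.9% of tested genes at that level were apart and lower. The part of brightness in the split was not tested. Array by array the median deviation of the 13 genes was -0.41, -0.33 and -0.41 in the KHSRP siRNA arrays, against -0.14, 0.08 and 0.05 in the scramble arrays. For the 6 others it was 0.01, -0.04 and -0.16 in the KHSRP siRNA arrays, against -0.11, 0.05 and 0.12 in the scramble arrays. The median of the first set therefore separated the groups in every array, and that of the second did not. The core of the response element was found in 7 of the 10 genes of the first set that had a window (70%), against 4.46% of genes with a window. In the second set 0 of 6 held it, a count that is near the 4.46%. Such elements can themselves be a ground for the description. The 7 cytosolic synthetases with the core had a median of -0.51 and ran from -0.97 to -0.23. The 9 with a window but without the core had a median of -0.15, though SARS1, at -0.77, was among them. The difference between these lists was not tested.

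**Figure D4:**
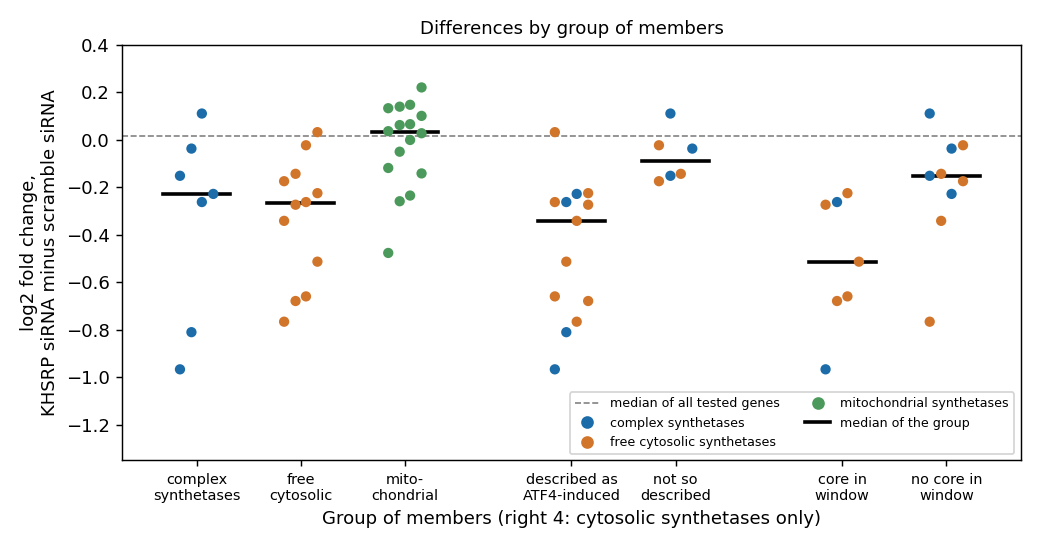
Log2 fold change, KHSRP siRNA minus scramble siRNA (vertical axis), of single genes (points) by group, with the median of each group (black bar) and of all tested genes (dashed line, 0.02); the last pair of groups splits cytosolic synthetases by whether a promoter window holds TGATGNAA, the core. Complex and free genes have medians of -0.23 and -0.27, genes described as ATF4-induced and the others -0.34 and -0.09, and genes with and without the core -0.51 and -0.15.

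Mitochondrial synthetases showed no common direction. At an unadjusted limma p under 0.05, 3 of the 16 (18.8%) were lower and 0 higher. Of all 22412 tested genes, 5.89% were lower and 1908 higher at that threshold. None of the 16 was called by limma, 7 were fitted below 0 and 9 above. Their median was 0.03, which became -0.02 without KHSRP siRNA replicate 1 or without scramble replicate 1. RARS2, for arginine, was at 9.89, 9.57 and 9.32 in the KHSRP siRNA arrays, against 10.16, 10.03 and 10.02 in the scramble arrays (log2 fold change -0.48, SE 0.15, adjusted p = 0.194). IARS2, for isoleucine, was at 9.29, 9.12 and 9.29 in the KHSRP siRNA arrays and at 9.40, 9.58 and 9.51 in the scramble arrays (-0.26, SE 0.09, adjusted p = 0.251). LARS2, for leucine, was at 6.59, 6.61 and 6.77 in the KHSRP siRNA arrays, against 6.95, 6.91 and 6.82 in the scramble arrays (-0.24, SE 0.09, adjusted p = 0.276). In these 3 genes (18.8% of the 16) every KHSRP siRNA array lay below every scramble array, against 7.82% of all tested genes. The reverse held for 0 of the 16, against 11.6% of all tested genes. In RARS2 the KHSRP siRNA arrays were spread widely.

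At the other end, PARS2, for proline, was at 6.12, 5.97 and 6.09 in the KHSRP siRNA arrays and at 6.12, 5.69 and 5.71 in the scramble arrays (log2 fold change 0.22, SE 0.13, adjusted p = 0.528). YARS2, for tyrosine, was at 8.79, 8.66 and 8.59 in the KHSRP siRNA arrays, against 8.64, 8.26 and 8.69 in the scramble arrays (0.15, SE 0.13, adjusted p = 0.719). Both overlapped between groups. The other 11 mitochondrial genes also overlapped and ran from -0.14 in MARS2 to 0.14 in WARS2. They included EARS2, which charges tRNA with glutamate, at -0.001, and CARS2, for cysteine, at -0.12. The rows of SARS2 and WARS2 had a mean under 4.73 in at least 1 group, so differences there may be compressed, which was not tested.

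For 13 amino acids a cytosolic and a mitochondrial enzyme could be set side by side, gene by gene. The cytosolic gene had the lower log2 fold change in 11 pairs, with a median difference of -0.41. The widest gaps were those of serine, with SARS1 at -0.77 and SARS2 at 0.04, and of asparagine, with NARS1 at -0.66 and NARS2 at 0.06. The rows of SARS2 and WARS2 had means under 4.73 in both groups, so their own differences may be compressed. What this adds to the gaps of serine and tryptophan was not tested. The exceptions were valine, with VARS1 at 0.03 and VARS2 at -0.05, and arginine, with RARS1 at -0.04 and RARS2 at -0.48. For isoleucine and leucine both genes were lower in all KHSRP siRNA arrays. In most pairs the mitochondrial row was also the dimmer, as with NARS1 at 12.39 and NARS2 at 7.35 in the scramble arrays. Of tested genes with a mean level of 9 or more, 18.9% were lower in every KHSRP siRNA array, against 7.82% of all. The mitochondrial rows of IARS2 and RARS2, at 9 or more, were both so. The part of level in the pairs was not tested.

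Other genes of tRNA charging and delivery were also examined. Of 28 listed, 20 were measured, and 1 was called (5.0%, against 0.759% of all tested genes in either direction), XPOT, which encodes the exportin that carries tRNA out of the nucleus. It was at 12.96, 12.81 and 12.51 in the KHSRP siRNA arrays, against 13.69, 13.67 and 13.61 in the scramble arrays, and fell by 0.90 on the log2 scale (SE 0.12, adjusted p = 0.0473). The list's median was -0.10, with 14 genes below 0 and 6 above, and the groups were apart in 6 genes lower and 3 higher in KHSRP siRNA, against 7.82% and 11.6% of all tested genes. The other 5 lower genes were XPO5 (-0.83, SE 0.14, adjusted p = 0.0527), EEF2 (-0.44), SEPHS1 (-0.42), GATB (-0.24) and TARS3 (-0.23). XPO5 encodes a nuclear exportin of microRNA precursors, and EEF2 encodes the factor that moves the ribosome along the mRNA. The 3 higher genes, of 20 measured and so near the 11.6% of all tested genes, were PTRHD1 (0.48), EEFSEC (0.26) and EEF1A2 (0.19). In the scramble arrays EEFSEC had a mean of 4.54, under 4.73, and PTRHD1 one of 4.88, little above it. Apart from XPOT, the named genes of this list were picked with their values known, as all of its genes with groups apart.

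Of 37 genes of ATF4 and the amino acid response, 35 were measured, 2 were called, both lower (5.71%, against 0.25% of all tested genes). In 9 (25.7%) all KHSRP siRNA arrays lay below all scramble arrays, against 7.82% of all tested genes, and in 0 they lay above, against 11.6%. PSAT1, which encodes an enzyme of serine synthesis, was at 13.02, 13.11 and 12.75 in the KHSRP siRNA arrays, against 13.99, 14.04 and 14.08 in the scramble arrays (log2 fold change -1.08, SE 0.11, adjusted p = 0.0438). VLDLR, a lipoprotein receptor gene, was at 8.27, 8.15 and 7.85 in the KHSRP siRNA arrays, against 8.93, 8.92 and 8.89 in the scramble arrays (-0.82, SE 0.12, adjusted p = 0.0473). No gene at all was called by limma after median centring, with the intensity trend and robust prior, with the covariate for array medians, or without KHSRP siRNA replicate 2 or 3 or scramble replicate 2 or 3, so XPOT, PSAT1 and VLDLR lost their calls there. The other 7 genes of the list with groups apart were CTH (-0.49), MTHFD2 (-0.47), TRIB3 (-0.27), SHMT2 (-0.25), PSPH (-0.22), CEBPG (-0.20) and CBS (-0.19), none called. MTHFD2 and SHMT2 encode mitochondrial enzymes of one-carbon metabolism, and PSPH an enzyme of serine synthesis. The list's median was -0.11, nearer 0 than that of the synthetases described as ATF4-induced. Like those 7, ATF4 and ASNS were named after a look at their values. ATF4 itself was at 10.41, 11.02 and 10.45 in the KHSRP siRNA arrays and at 10.42, 10.32 and 10.30 in the scramble arrays (0.28, SE 0.16, adjusted p = 0.523). ASNS, the asparagine synthetase gene often used as a reporter of this response, was at -0.15 (SE 0.09, adjusted p = 0.530), and in both genes the groups overlapped.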

How the data were processed

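RNA from 6 SW480 samples, 3 per siRNA, was amplified to biotin-labelled cDNA for Affymetrix arrays, per the labels' protocols. The authors deposited log2 intensities for 70523 rows. The submitters' processing notes name Affymetrix Expression Console, RMA, Transcriptome Analysis Console and build hg19, without settings. In general RMA corrects background, quantile-normalizes arrays and can compress dim genes. Array maxima up to 19.93 exceed the usual range of RMA, so an undescribed rescaling is possible and folds are on the deposited scale. Arrays carry no depth, and their number limits precision.

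Rows with 1 annotated symbol (23781) were named through gene ID, symbol or older symbol in a RefSeq gene table (GRCh38.p14), the brightest row per gene was kept, and KHSRP was admitted from a row with several symbols. All 22412 genes were fitted with limma 3.58.1 in R 4.3.3 (KHSRP siRNA minus scramble siRNA, lmFit and eBayes, two-sided, Benjamini-Hochberg over all genes, called under 0.05). The fit was tested on simulated data. Promoters came from RefSeq. Members and lists were chosen with earlier results of these data known. Values in every array are given for all genes of the complex, the 6 free cytosolic and 5 mitochondrial synthetases with the largest differences, and called genes. If the replicates were not separate cultures, p-values measure technical spread only. Alternatives were the replicate block, quantile normalization again, median centring, brighter genes only, an intensity trend with robust prior, array weights, the mean of a gene's rows, each array left out, and a covariate for array medians, which was added after seeing the data.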

Additional observations from a re-analysis of the deposited data

How the results depend on the processing

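Of the 36 members, 28 kept the sign of their log2 fold change in every one of up to 14 alternatives that tested them, 21 of them below 0 and 7 above, and 8 near 0 changed sign in at least 1. The number of called members, 3 by the limma fit reported, was 6 with array weights and also 6 when dimmer genes were left out (IARS1, LARS1, SARS1, CARS1, NARS1 and GARS1 each time). It was 3 when a gene's rows were averaged and 1, IARS1, after a further quantile normalization. It was 0 by limma with the replicate block, after median centring, with the intensity trend and robust prior and with the covariate for array medians, where 11, 13, 13 and 13 members had an unadjusted p under 0.05. Leaving out 1 array gave between 0 and 3 called members, 3 without KHSRP siRNA replicate 1 and 0 otherwise, with 8 to 14 members at an unadjusted p under 0.05. Over all genes the calls numbered 170, against 1 with the replicate block, 32 after a further quantile normalization, 433 without dimmer genes, 704 with array weights, 173 when a gene's rows were averaged, 0 with median centring, the trend and the covariate, and from 0 to 329 when 1 array was left out. Deviations of same-numbered arrays correlated at 0.16, 0.06 and -0.08, so the numbers were not taken as pairs.

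The median of the mitochondrial synthetases was -0.0031 with array weights and lay between -0.0242 and 0.0364 with 1 array left out, and complex minus free between 0.0092 and 0.12. Signs turned, all in members not called, with array weights (FARS2 -0.0013, NARS2 -0.0234), after a further quantile normalization (TARS2 -0.0057, VARS1 -0.0217) and with the covariate (EARS2 0.0016, RARS1 0.0501, SARS2 -0.0088). With 1 array left out, the log2 fold change lay between -0.0373 and 0.029 for EARS2, -0.0657 and 0.184 for FARS2, -0.131 and 0.0787 for FARSA, -0.0231 and 0.151 for NARS2, -0.149 and 0.0357 for RARS1, -0.0289 and 0.102 for SARS2, -0.06 and 0.104 for TARS2, and -0.0152 and 0.062 for VARS1. The cause of these changes was not tested. The median of all genes was -0.01 after median centring and 0.02 as deposited. Rows with several symbols, apart from that of KHSRP, were not admitted in any alternative, so their effect was not tested. The number of arrays limits all of these results.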
